A study of Caenorhabditis elegans with 9 samples.

Results

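The genes of the muscle sarcomere and of its attachment to the body wall were examined for open chromatin in Caenorhabditis elegans. The 32 members were chosen by symbol: a site belonged to a member when the authors' gene table gave that symbol for it. They comprise 9 genes of the thick filament and its M-line partners, 11 of the thin filament, 10 of the attachment complexes and 2 of calcium release and entry, out of 19971 protein-coding genes. Of the 32, 4 (myo-1, myo-2, tni-4 and tnc-2) were placed with the pharynx. The other 28, called body wall members below, were placed with body wall muscle or with both.

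The sites come from DNase-seq, in which nuclei are treated with DNase I, which cuts open DNA, and the small pieces released are sequenced. The animals were wild-type N2, either embryos of around 40 cells (4 replicates) or larvae in L1 arrest, held after hatching without food (5 replicates). The authors deposited 1 merged list of DNase I hypersensitive sites (DHS) per stage, so no value below carries an error between replicates, and the reads behind a site are not given in the lists. Coordinates below are in the ce10 build and count from 1. No fed L1 larvae were sampled, and arrest cannot be told apart from hatching, age or cell composition.

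In body wall muscle, myosin thick filaments are centred on the M-line and actin thin filaments are anchored at dense bodies. Both structures sit on integrin at the cell membrane and pull on the basement membrane, the epidermis and the cuticle. The pharynx, the feeding pump, has its own sarcomeres, which are made in part from separate myosin and troponin genes. At around 40 cells no sarcomeres have been built, while a newly hatched larva crawls with working muscle.

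Nearly every member had open noncoding chromatin in both stages. A noncoding DHS, the part of a DHS outside exons, was assigned to 31 of the 32 members in the embryo and to 29 in L1 arrest. Among all protein-coding genes the shares were 52.5% in the embryo and 38.9% in L1, and 37.1% had a site in each stage, against the 29 members. In all 123 embryo and 84 L1 DHS belonged to the members, with a median of 3 and 2 per member and 1 and 0 over all protein-coding genes. Gene length was not matched here. In nuclei of whole animals, fewer cells of a type and less accessibility per cell cannot be told apart.

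The embryo had the larger number of DHS in 19 members, both stages had equal numbers in 12 (tni-3 among them, with 0 in both) and L1 had the larger number in 1, unc-45. Over the 10825 genes with a DHS in either stage, 60.8% had more in the embryo, 32.1% had equal numbers and 7.13% had more in L1. L1 DHS made up 40.6% of the members' DHS of both stages (exact 95% binomial interval 33.8 to 47.6%, counting error only), and 37.5% over all genes. The stage balance of the members was therefore close to that of the genome. A two-sided Fisher's exact test per gene, with Benjamini-Hochberg adjustment over 10825 genes, called 0 genes (0% of those tested), and 6 genes (0.0554%), none of them a member, had an unadjusted p under 0.05. The smallest adjusted p was 0.0962 over all genes and 1 over the members. With a median of 3 embryo and 2 L1 DHS per member, most members had too few sites for this test to call any difference. The lack of calls among the members is therefore no evidence that their stages are equal.

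**Figure D1:**
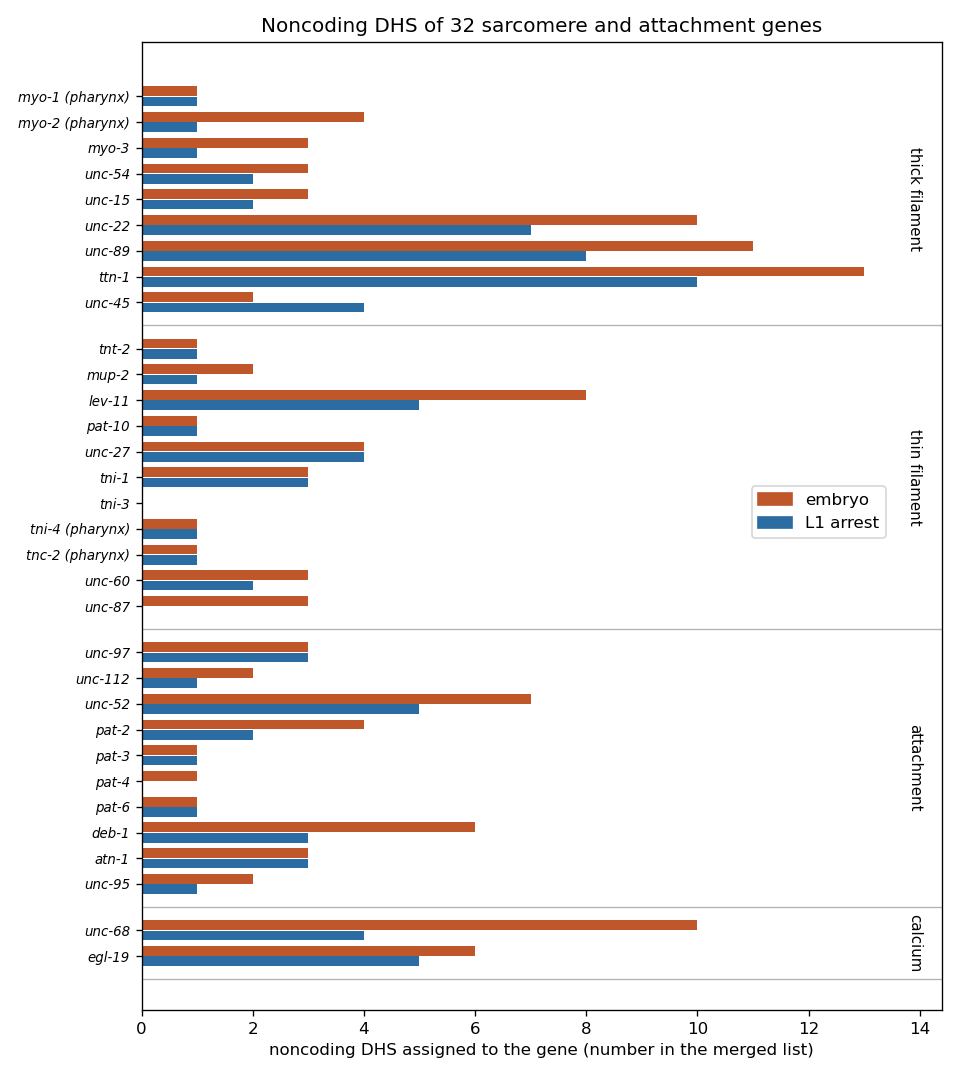
Number of noncoding DHS assigned to each member in the merged embryo list (orange) and the merged L1 arrest list (blue), in order of role. The longest bars belong to ttn-1 with 13 and 10, unc-89 with 11 and 8, and unc-22 and unc-68 with 10 each in the embryo, and only unc-45 has a longer L1 bar.

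Among the thick filament genes, the giant proteins held most of the sites. The gene ttn-1, which encodes a titin-like protein, had 13 embryo and 10 L1 DHS on chromosome V. For unc-89, which encodes an obscurin-like protein of the M-line, the numbers were 11 and 8 on chromosome I. The twitchin gene unc-22, whose product is a kinase along the thick filament, had 10 and 7 on chromosome IV. Each of these 3 genes held more embryo DHS than 98.9% of protein-coding genes or a larger share. At least 5 noncoding DHS were found in 6.43% of all genes in the embryo and in 2.58% in L1.

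The myosin heavy chains themselves held fewer sites than ttn-1, unc-89 and unc-22. Of the 2 body wall myosins, unc-54, the major one, had 3 embryo and 2 L1 DHS, and myo-3, which forms the middle of the filament, had 3 and 1. Both still held more embryo DHS than 83.9% of protein-coding genes. In L1 unc-54 held more than 82.5% of these genes, and myo-3 more than 61.1%. The best ranked site of unc-54 lay 21 bp from the gene at chrI:14863561-14863710, among the top 1.72% of embryo noncoding DHS and the top 4.23% of L1 noncoding DHS by score. For myo-3 the site common to both stages was intronic, at chrV:12233501-12233650, and ranked in the top 27.5% and top 59.1%. The score is the authors' own, on a scale that the sources used here do not state, and it served only to rank sites within a list. Paramyosin, encoded by unc-15, forms the filament core, and its gene had 3 and 2 DHS, the best of them in the top 9.39% and top 11.3%.

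The pharyngeal myosins differed in number. The gene myo-1 had a single DHS touching the gene, at chrI:7267080-7267210, with the same borders in both stages and in the top 37.7% and top 66.9%. The gene myo-2 had 4 embryo DHS and 1 L1 DHS on chromosome X. Its embryo sites at 392 and 132 bp outside the gene and in an intron at chrX:12469801-12469877 had no L1 counterpart, coding DHS included. The site open in both stages was the intronic one at chrX:12474401-12474478.

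The chaperone gene unc-45, whose product folds myosin, was the member with more L1 than embryo sites, 4 against 2. Its stage difference had an unadjusted p of 0.206 and an adjusted p of 1 (Fisher's exact test, Benjamini-Hochberg). Its site 90 bp from the gene, at chrIII:502681-502830, was open in both stages, in the top 7.31% in the embryo and the top 14.8% in L1. The other embryo site was intronic, and the other 3 L1 sites were on the authors' L1-arrest-associated list, which holds the L1 noncoding sites that no embryo noncoding site overlaps. They lay 738 bp outside the gene at chrIII:490661-490810 and in introns at chrIII:498481-498630 and chrIII:498841-498990. The nearest embryo DHS of any kind were 530, 430 and 350 bp away, and the sites held 4, 5 and 5 footprints, short protected stretches within a DHS.

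Across the members, 4 genes had arrest-associated DHS, 8 sites in all. Such a site was found in 7.19% of all protein-coding genes and in 18.5% of genes with an L1 DHS, so the 4 of 29 members were near the background. Per gene, a two-sided Fisher's exact test of arrest-associated against other L1 DHS called 2 of 7764 genes (0.0258%) and no member. For unc-45 the unadjusted p was 0.00523, and the p adjusted over all genes was 1 (Fisher's exact test, Benjamini-Hochberg). At an unadjusted p under 0.05 there were 110 genes (1.42%), with unc-45 the only member among them. With 4 L1 DHS in unc-45, and a median of 2 over the members, this test too had little power.

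The 5 other arrest-associated sites were narrow intronic parts of DHS. In unc-89 there were 3, of 38, 95 and 45 bp, at 0, 65 and 15 bp from an embryo DHS of any kind. Tropomyosin, encoded by lev-11, had a part of 39 bp at 130 bp from an embryo DHS, and unc-52 a part of 38 bp at 90 bp. Thus the arrest-associated sites of unc-45 were the only ones among the members with the full width of 150 bp, and the only ones over 300 bp from any embryo DHS.

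Thin filament genes had fewer sites, with medians of 2 and 1, and 7 of the 11 had equal numbers in both stages. The exception in number was lev-11, with 8 embryo and 5 L1 DHS. Its embryo site at chrI:14627541-14627690, in the top 4.72%, had no L1 counterpart of any kind. It was the highest ranked among the 47 embryo sites of the members without an L1 noncoding counterpart. The L1 site of lev-11 ranked highest was another, at chrI:14632261-14632410, in the top 11.2%.

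Troponin holds tropomyosin in place until calcium binds. Troponin I genes differed among themselves: unc-27 had 4 DHS in each stage, all 4 shared, tni-1 had 3 in each stage, also shared, tni-4 had 1 in each, and tni-3 had none. Of the 3 tni-1 sites as listed, 2 were nearby parts with the same score, and 1 of these was 2 bp wide in the embryo. For tni-3 the neighbouring genes phy-3 and clec-40 held 4 and 1 embryo DHS and 2 and 0 L1 DHS. Where these lie relative to tni-3 was not examined. The best site of unc-27 touched the gene at chrX:8789381-8789454, with the same borders in both stages, and ranked in the top 3.98% and top 14.7%.

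The troponin T genes mup-2 (2 embryo and 1 L1 DHS) and tnt-2 (1 and 1), and the troponin C genes pat-10 and tnc-2 (1 and 1 each), each kept a site within 300 bp of the gene in both stages. The actin depolymerising factor gene unc-60 had 3 and 2, and its best site touched the gene in both stages, in the top 3.55% and top 11.7%. The calponin-like gene unc-87, whose product bundles actin filaments, had 3 embryo DHS and none in L1. Of these, the intronic site at chrI:6765713-6765770 overlapped an L1 DHS that was not listed there as noncoding, and the sites 1204 and 2264 bp outside the gene overlapped none. For unc-87 the unadjusted p of the stage test was 0.297 and the adjusted p 1 (Fisher's exact test, Benjamini-Hochberg).

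Attachment genes included several of the highest ranked sites of the members. The gene unc-95, which encodes a LIM domain protein of the dense body, had a DHS 792 bp outside the gene at chrI:14380421-14380570, ranked 182 among 26644 embryo noncoding DHS (top 0.683%). The L1 site there ranked in the top 1.14%. For unc-97, which encodes a PINCH adaptor of the integrin complex, the site at chrX:5591921-5592070, 1064 bp outside the gene, was in the top 0.897% and top 1.64%, with the same borders in both stages. The only comparable site among the other members was that of egl-19, described below.

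The parvin gene pat-6 had a single site in each stage, 209 bp from the gene in the embryo, in the top 3.43% and top 3.55%. The kinase partner of UNC-97 and PAT-6, integrin-linked kinase, is encoded by pat-4, which had 1 intronic embryo DHS (top 39.9%) and none in L1. Its neighbours mrpl-40 and C29F9.8 had 2 and 1 L1 DHS. The integrin beta gene pat-3 had 1 site 823 bp away in each stage, and the integrin alpha gene pat-2 had 4 and 2, of which the distant pair, near 993 and 2973 bp from the gene, was open in both stages. The numbers for this complex therefore ranged from none to 3 in L1.

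Perlecan, encoded by unc-52, is the matrix protein to which the integrin attaches. Its gene had 7 embryo and 5 L1 DHS, of which 4 were shared. The vinculin gene deb-1 had 6 and 3, all 3 L1 sites shared, and the alpha-actinin gene atn-1, whose product crosslinks actin at the dense body, had 3 in each stage, all shared. The kindlin gene unc-112 had 2 and 1, with the site near the gene shared and the intronic site at chrV:14695361-14695510 open in the embryo alone.

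The calcium genes showed both patterns. The ryanodine receptor gene unc-68, which releases stored calcium, had 10 embryo and 4 L1 DHS, the widest difference among the members at 6, with an adjusted p of 1 in the stage test (Fisher's exact test, Benjamini-Hochberg). Of its 10 embryo sites as listed, 6 had no L1 counterpart. The best ranked of these, in the top 37.3%, was a part of 18 bp with the same score as a nearby part that was shared. The others ranked between the top 53.8% and top 97.3%. The L-type calcium channel gene egl-19 had 6 and 5, and 5 of its 6 embryo sites were shared. Its best site lay 3031 bp outside the gene at chrIV:7402281-7402430, in the top 0.706% in the embryo and the top 1.49% in L1.

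Body wall and pharyngeal members were set side by side without a test, since only 4 are pharyngeal. The body wall group may include genes of both muscles, so the values are not a contrast of the tissues. The 28 body wall members held 116 embryo and 80 L1 DHS, and the 4 pharyngeal ones 7 and 4. The L1 share was 40.8% (33.9 to 48.0%) for the body wall and 36.4% (10.9 to 69.2%) for the pharynx, and the wide pharyngeal interval held the whole of the body wall interval. Among the pharyngeal sites, 4 of 7 in the embryo and 3 of 4 in L1 lay within 300 bp of the gene, against 19 of 116 and 18 of 80 for the body wall. None of the pharyngeal sites reached the top 20% of its list. The troponin sites of the pharynx, 142 to 162 bp from tni-4 and 23 bp from tnc-2, ranked in the top 45.3% and top 28.3% in the embryo.

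Sites were followed one by one across the stages. The members' noncoding DHS formed 131 sites. By overlap of at least 1 bp between noncoding DHS, 76 were open in both stages, 47 in the embryo alone and 8 in L1 alone. An L1 noncoding site thus lay over 61.8% of the members' embryo DHS (52.6 to 70.4%), and an embryo one over 90.5% of their L1 DHS (82.1 to 95.8%). Over all noncoding DHS the shares were 53.5% and 88.6%. Ordered by score, 32 of the members' 35 sites in the upper 20% of the embryo list had an L1 counterpart, and 1 of the 12 in the lowest 20%. For all embryo noncoding DHS these shares were 93.7% and 12.7%, against 91.4% and 8.33% for the members.

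By location, sites close to the gene were shared most often. Within 300 bp of the gene and outside introns, on either side, 21 of 23 embryo sites were open in L1 too (91.3%), against 53.6% of all embryo DHS of that class. The 21 shared sites made up all 21 L1 sites of the class. The embryo sites without an L1 counterpart there belonged to myo-2, at 132 bp, and to unc-15, touching the gene. All 23 embryo sites of the class ranked within the top 45.3% of the embryo list. By steps of 20% from the highest score, 93.7%, 82.6%, 52.2%, 26.1% and 12.7% of all embryo noncoding DHS had an L1 counterpart. Sites were not matched by rank, and the part of rank in the contrast with 53.6% was not tested. Intronic sites were shared in 39 of 69 cases (56.5%, beside 47.9% over all) and more distant ones in 16 of 31 (51.6%, beside 5910 of 9849 over all). These shares are descriptions, and several sites belong to the same gene. Sites were counted as listed, so parts with the same score, such as those of tni-1, were counted apart.

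**Figure D2:**
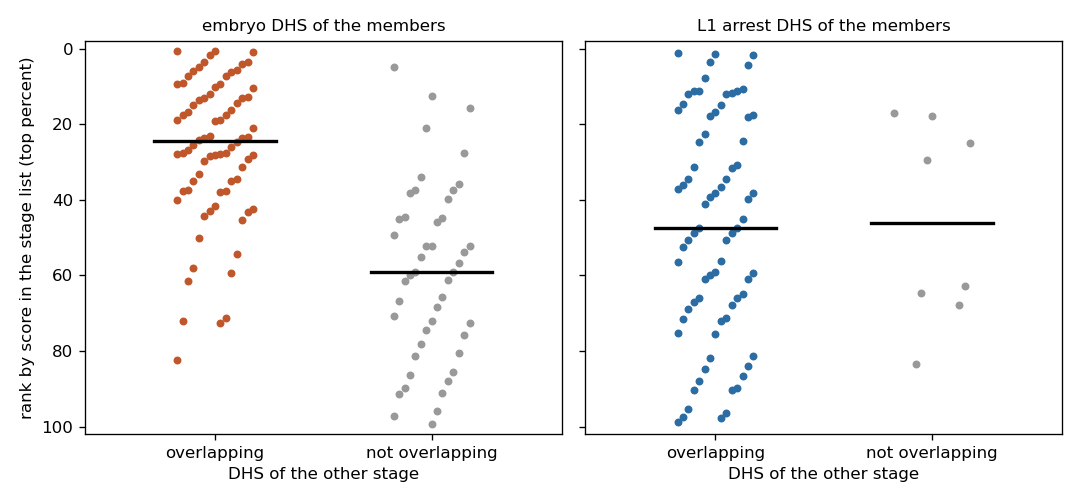
Rank by score of each member DHS in its own stage list (top percent, the highest scores at the top), split by whether a noncoding DHS of the other stage overlaps it, with a black line at the median. In the embryo the shared sites have a median of the top 24.3% and the others of the top 59.1%. In L1 the medians are the top 47.3% and top 46.1%, the latter over 8 sites. Over all noncoding DHS, not drawn, they are the top 29.1% and top 72.7% in the embryo. The L1 medians over all are the top 47.7% and top 66.3%.

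As a set, the members had a larger share of their sites in introns than the genome did. The intronic embryo sites were concentrated in long genes: ttn-1 held 12, unc-89 10, unc-68 9, unc-22 8 and lev-11 7. No other member held more than 3. The larger intronic share therefore rests on these genes and is not shown for the members in general. Of their embryo DHS 56.1% were intronic, 18.7% lay within 300 bp and 25.2% farther out, against 43.8%, 19.2% and 37.0% of all noncoding DHS. In L1 the members' shares were 54.8%, 25.0% and 20.2%, and those of all noncoding DHS 40.4%, 18.8% and 40.8%. Outside introns the median distance to the gene was 454 bp in the embryo and 189 bp in L1, against 769 and 848 bp over all assignments.

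The members' embryo sites also ranked above the middle of the list. Their median was the top 35.1% in the embryo and the top 47.3% in L1. A site in the top 20% belonged to 20 of 32 members in the embryo and to 15 in L1, against 17.2% and 11.1% of all protein-coding genes. Sites in the top 5% belonged to 5.11% of all protein-coding genes in the embryo and to 3.06% in L1. Among the members they belonged to 9 in the embryo and to 5 in L1 (unc-95, egl-19, unc-97, pat-6 and unc-54), which are among the 9. The 4 others are unc-60, unc-27, lev-11 and unc-89, whose best L1 sites ranked between the top 11.2% and top 14.7%. For lev-11 this was a different site, since its top 5% embryo site had no L1 counterpart.

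The longer embryo list shifts such ranks, so a second ranking took the shared sites alone. Of the 76 shared sites of the members, 56 ranked higher in the embryo than in L1 (73.7%), and of 14247 shared sites in all 54.9% did. The median of the members was the top 42.3% in the embryo and the top 49.6% in L1. Exceptions with the widest gaps the other way were an intronic site of unc-52 at chrII:14666694-14666759, in the top 85.2% and top 33.4%, and an intronic site of unc-68 at chrV:6911201-6911350, in the top 46.5% and top 18.1%. An intronic site of unc-22 at chrIV:12004361-12004510 moved most in the main direction, with the top 48.5% and top 90.6%. The same gene could hold both kinds: another unc-68 site, at chrV:6926241-6926390, was in the top 33.5% in the embryo and the top 68.1% in L1.

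**Figure D3:**
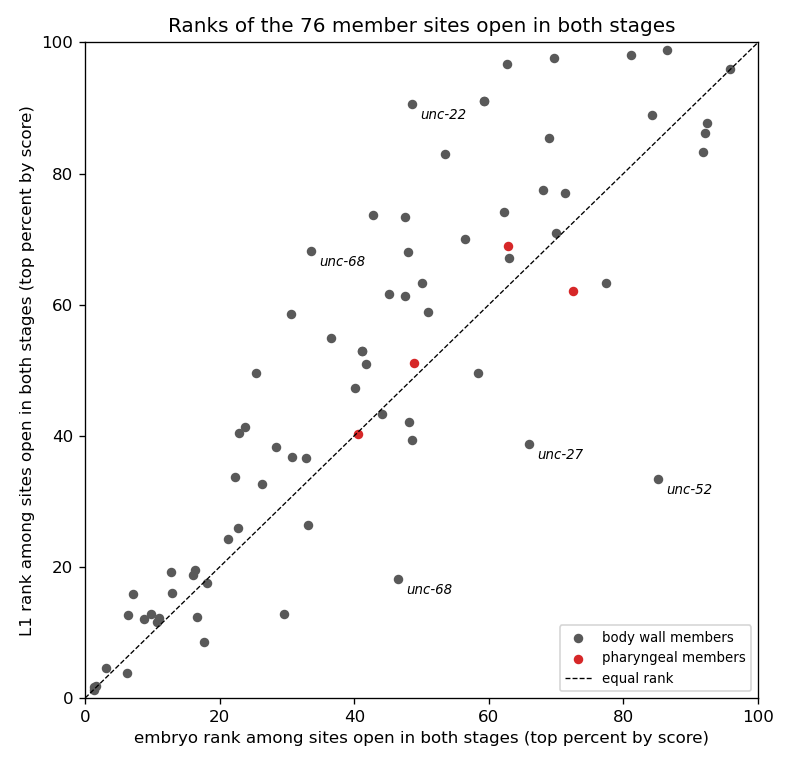
Rank of each of the members' 76 shared sites among all sites open in both stages, in the embryo (horizontal) and in L1 arrest (vertical), as top percent by score, with pharyngeal members in red and a dashed line at equal rank. Points above the line ranked higher in the embryo (56 sites), and the unc-52, unc-27 and unc-68 sites named below the line have the widest gaps the other way.

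The best ranked site of a gene was mostly the same place in both stages. This held for 26 of the 29 members with sites in both (89.7%), beside 80.8% of all protein-coding genes with sites in both. With at least 2 sites in each stage it held for 14 of 17 members. Over all protein-coding genes with at least 2 sites in each stage the share was 70.9%, against 82.4% for the members. The exceptions were ttn-1, lev-11 and unc-68. In ttn-1 the best embryo site was at chrV:6164021-6164170 (top 9.05%) and the best L1 site at chrV:6153689-6153730 (top 7.80%), and each was open in the other stage.

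Footprints were present in 80.5% of the members' embryo DHS (72.4 to 87.1%) and in 73.8% of their L1 DHS (63.1 to 82.8%). Over all noncoding DHS 21857 of 26644 and 13511 of 16084 held a footprint, the latter 84.0%. The members' L1 DHS were also narrower than 150 bp more often, at 29.8% against 20.6% of all, and the part of width in the footprint share was not tested. Within the shared intervals, 122 of the members' 146 L1 footprints overlapped an embryo footprint (83.6%), and 78.2% did over all shared intervals. The sites with most merged footprints were the unc-45 site 90 bp from the gene, with 6 in the embryo and 2 in L1, and sites with 5, such as those of unc-95 and egl-19.

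The exons of the long genes were open too. Between its first and last intronic DHS ttn-1, over 64.7 kb, held 39 embryo and 25 L1 DHS of any kind, of which 27 and 16 lay in exons alone. For unc-89, over 48.6 kb, the numbers were 35 and 13, with 25 and 6 in exons alone. In the whole lists 37.8% of embryo and 33.1% of L1 DHS lay in exons alone. These sites are not assigned to genes in the tables used here, so they enter no count above, and genes nested within the span may own some of them.

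Some of the exon sites of the long genes were open in L1 too. In unc-89 7 of the 25 embryo exon sites overlapped an L1 DHS, and in ttn-1 14 of 27, beside 46.8% of all embryo DHS in exons alone. In unc-52, over 15.5 kb, 11 of 13 embryo and 8 of 10 L1 DHS lay in exons alone, and 7 of the 11 were open in L1. In unc-22, over 15.3 kb, exons alone held 3 of 10 embryo and 1 of 7 L1 DHS, and in unc-68, over 21.5 kb, 8 of 16 and 4 of 8. Of these embryo exon sites, 1 of 3 in unc-22 and 4 of 8 in unc-68 were open in L1. Within the span of unc-89 the stages thus held 35 against 13 DHS of any kind, and 10 against 7 with a noncoding part.

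**Figure D4:**
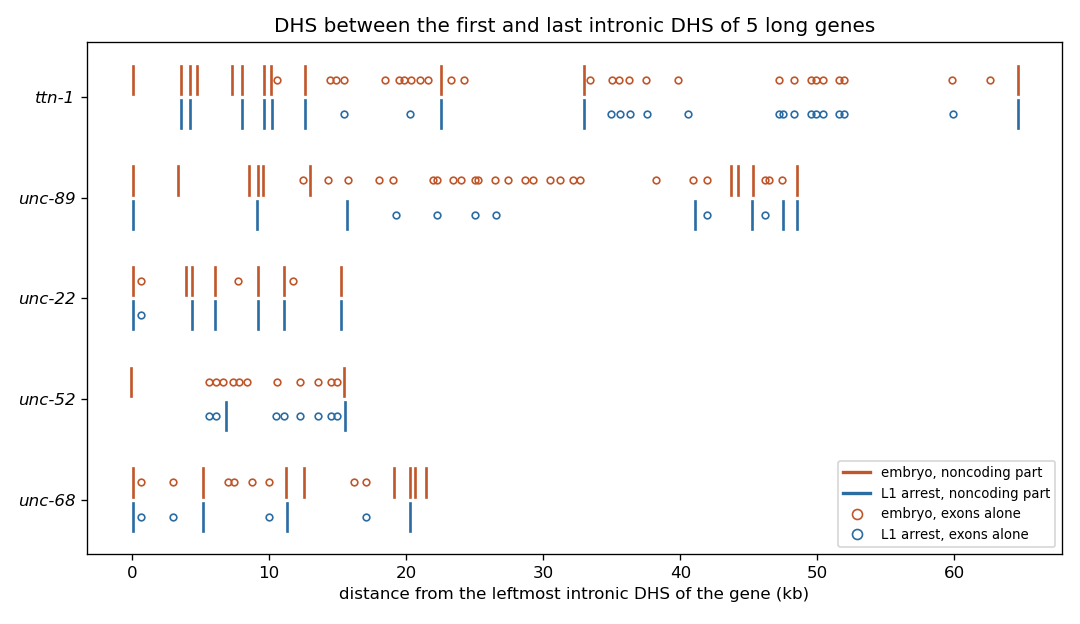
DHS between the first and last intronic DHS of 5 long member genes, by distance from the leftmost intronic DHS in kb, for the embryo (orange, upper row of each gene) and L1 arrest (blue, lower row), with bars for DHS that have a noncoding part and open circles for DHS in exons alone. The unc-89 embryo row holds 25 circles and its L1 row 6, and the ttn-1 rows hold 27 and 16.

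Of the members' sites, 2 intronic DHS of ttn-1 in each stage were also assigned to exp-2, a potassium channel gene, and no other site was shared with another gene in the tables. The listed parts of a DHS can be as narrow as 2 bp, and 4 embryo and 2 L1 DHS of the members were listed as more than 1 part. Counted as whole DHS there were 119 in the embryo and 82 in L1, of which 74 in each were shared.

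The authors also listed genes near sequence words found in embryo DHS, and 7 of 57 such lists named a member, always unc-89, lev-11 or unc-54. These 7 lists held 29 to 199 genes each, and how many lists would name a member by chance was not tested. The number of lists is therefore no evidence of a link between the words and the members. A word is shown for each of the 3 genes, that of its longest list, because such words are the deposited sequences tied to members. They are genome-wide motif words rather than sequence read from these genes. The list of 93 genes with unc-89 and the 2 lists of 103 and 199 genes with lev-11, and that of 190 genes with unc-54, have these as the first listed word, 5′ to 3′, in capitals throughout because the whole word is the motif:
unc-89: GCTGCTGCT
lev-11: CGTGGCGAGAC
unc-54: CGGCCGCGGC
Each of these lists names 1 member among its genes.

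Marker genes of several cell types were looked up in the same lists, which does not measure the cell composition of the animals. The body wall muscle regulators hlh-1, unc-120 and hnd-1 had 3, 4 and 3 embryo DHS and 0, 3 and 2 L1 DHS. The gene hlh-1, which encodes the MyoD factor of the worm, was thus without an L1 noncoding DHS while 25 of 28 body wall members kept at least 1. Marker genes of neurons had DHS in 6 of 6 genes in both stages, those of the intestine in 6 and 4 of 6 and those of the epidermis in 5 and 4 of 6. Among all protein-coding genes the shares were 52.5% in the embryo and 38.9% in L1.

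Other muscle genes, a list of 65 outside the members, had the same medians as the members but not the same split between the stages. A noncoding DHS was assigned to 59 of them in the embryo and to 52 in L1, with 279 and 165 DHS, medians of 3 and 2 and an L1 share of 37.2%. Of the 65, 49 had more embryo DHS, 13 equal numbers and 3 more L1 DHS, beside 19, 12 and 1 of the 32 members. This difference in split was not tested. The stage test, a Fisher's exact test per gene, called 0 of the 65. The highest embryo counts by role were those of lim-9 (15 embryo and 9 L1 DHS) and unc-82 (12 and 6) at dense bodies and M-lines, and of pat-12 (13 and 6) and vab-10 (12 and 9) on the epidermal side. In the basement membrane they were those of the collagen genes let-2 (11 and 6) and cle-1 (7 and 3), and at the junction with motor neurons those of unc-49 (12 and 8), a GABA receptor gene, and lev-10 (5 and 3). Calcium genes were led by unc-43 (10 and 8), which encodes CaM kinase, and cca-1 (9 and 6), a calcium channel gene, and the dystrophin complex by dys-1 (6 and 2) and stn-1 (5 and 4). In the thin filament, unc-94, the tropomodulin gene, had 5 and 0, and the actin gene act-4 had 4 and 2. The inositol trisphosphate receptor gene itr-1, singled out after its values were seen, had the same counts as unc-45, with 2 embryo and 4 L1 DHS, 3 of them arrest-associated.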

How the data were processed

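The authors' deposited lists of DHS, noncoding DHS, footprints and gene assignments for both stages were used as deposited. Per the labels' protocols, read length was mixed within each stage (50 bp in 3 replicates of each, and 76 bp in the 1 other embryo and the 2 other L1 replicates), and all were merged. The submitters' processing notes name Bowtie 1.0.0, SAMtools, FastQC and the build ce10. Peaks were called with HOTSPOT, filtered for reproducibility between replicates, cleared of repeats and merged by stage, and footprints were called with DNase2TF, per the series design text. The score in the lists is the authors' deposited value, on a scale the sources used here do not state.

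Sites were taken by symbol from the gene tables, and genes were matched to the WBcel235 gene table for names and neighbours alone, which gave 10475 embryo and 7764 L1 coding genes. Coordinates are ce10 and count from 1. Overlapping footprints were merged, exact repeats included. Per gene, two-sided Fisher's exact tests with Benjamini-Hochberg adjustment over all genes and a threshold of 0.05 were run with scipy 1.17.1 and numpy 2.4.6 in Python 3.11.15 and checked on simulated data, and figures were drawn with matplotlib 3.10.9. Intervals are exact binomial (Clopper-Pearson) at 95% and cover counting error only. DHS of a gene are not independent, and p-values treat them as such.

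The members and lists were chosen with earlier results of these data known. All members are accounted for. Those picked for description had the 5 highest counts in a stage, the 3 largest surpluses in a direction, an arrest-associated site, no site in a stage, a pharyngeal place or the best rank, with ties in alphabetical order. Behind unc-68, 7 members tied at an embryo surplus of 3. Of other muscle genes, the 2 with most embryo DHS in each role were named. Alternatives changed gene assignment, list length, score limit, the number of sites asked of a gene, location, test and overlap, and whole-DHS counting was added after the data were seen. Promoter and protein sequences are not used here.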

Additional observations from a re-analysis of the deposited data

How the results depend on the processing

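Of 31 alternatives to the reported values, 26 left the result within 1.5 times its value or within its interval. With at least 2 DHS asked of a gene, 17 members remained in L1 rather than 29, beside 17.5% of all genes, and 23 in the embryo, beside 28.4%. With introns left out, 1 member in place of 4 had an arrest-associated DHS, since 7 of the 8 sites are intronic. With the lowest scoring embryo sites dropped until both lists were equally long, the stage test called 1 gene in place of 0, no member among them, and the L1 share of body wall members was 47.3%, beside 49.8% over all genes, and that of pharyngeal members 36.4%. Without merging, footprints numbered 574 rather than 272 in the members' embryo DHS and 400 rather than 168 in their L1 DHS, since overlapping calls were then counted apart. The exact binomial test called 0 genes, with 6 at an unadjusted p under 0.05. Where no reason is stated, the cause was not tested. No paired analysis was possible because the replicate letters are not shared between the stages and the lists are merged, and for the same reason no replicate could be left out. The number of reads behind a site is not given in the lists, so a site absent from a list was not listed at that depth, and its absence from the animals is not shown.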
